A study of Mus musculus with 9 samples.

Results

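The genes described here are 39 immediate early and heat shock genes, which cells switch on within minutes of being disturbed and which are known to respond to tissue dissociation and sorting. They were taken by name from the deposited count table of mouse lung cells (39 of 19348 gene symbols). By role, 9 encode subunits of the AP-1 transcription factor or its relatives, 10 encode EGR, NR4A, KLF or MYC transcription factors, 12 encode signalling inhibitors and other immediate early products, and 8 encode heat shock proteins. The source was lung of C57BL/6J mice whose genotype combines Col1_GFP, a green reporter of type 1 collagen, with Foxf1_tdTomato, a red reporter of the mesenchymal and endothelial transcription factor Foxf1. Cells with both reporters (DBL), with the collagen reporter alone (ColGFP) and with the Foxf1 reporter alone (TDonly) were sorted, with 3 RNA-seq libraries of each. All 3 populations come from the same genotype and the labels name no treatment, so sorting by reporter is the only difference between them that the labels give. The labels do not give the age of the mice, the sort gates, the time from dissociation to lysis or whether replicates are separate animals. The p-values below therefore measure the spread between these libraries, which may be technical. Within each population, 1 library carries a sequencing core number from an earlier run of numbers and 2 carry numbers from a later run. These are called the first and second series below, and no label says what separates them.

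Immediate early genes need no new protein for their own transcription, because the factors that start it, such as SRF and CREB, are already bound at their promoters and are switched on by phosphorylation. Their products are mostly transcription factors, which pair as AP-1 dimers or act alone, together with phosphatases and RNA-binding proteins that shut the response down again. Heat shock genes are started by HSF1 when unfolded protein accumulates, and encode chaperones that refold or hold such protein. Both groups are widely used as a sign of how much cells were stressed while a tissue was digested, but they also respond to growth factors, stretch and blood flow in living tissue.

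Promoter sequences, taken as the 250 bases before the start in RefSeq (build GRCm38.p6), were at hand for 32 of the 39 members, in 42 windows. Those of Fos, Nr4a1, Nr4a2 and Btg2 are shown as examples from the members whose levels differed between populations. Capitals mark TGACG on either strand, the shorter form of the cAMP response element, which CREB and ATF proteins bind. Each of these holds 2 or 4 copies, whereas other members that differed, among them Gadd45b, Zfp36, Fosl2, Jun and Ier3, held 0. In Btg2 both copies lie inside the full element TGACGTCA. The windows lie at chr12:85473640-85473889 (plus strand), chr15:101266596-101266845 (plus strand), chr2:57124004-57124253 (minus strand) and chr1:134079156-134079405 (minus strand), each written 5′ to 3′ along its gene. No shown window overlaps an exon of GENCODE M21 on its strand, and that of Nr4a1 lies inside the span of a longer model of the gene (chromosome 15, 101254269 to 101274795).
Fos: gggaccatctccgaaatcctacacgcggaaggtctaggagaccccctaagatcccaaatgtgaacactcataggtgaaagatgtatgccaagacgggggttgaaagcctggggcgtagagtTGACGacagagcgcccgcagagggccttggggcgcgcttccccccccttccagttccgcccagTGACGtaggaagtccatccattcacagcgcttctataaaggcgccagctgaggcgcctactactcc
Nr4a1: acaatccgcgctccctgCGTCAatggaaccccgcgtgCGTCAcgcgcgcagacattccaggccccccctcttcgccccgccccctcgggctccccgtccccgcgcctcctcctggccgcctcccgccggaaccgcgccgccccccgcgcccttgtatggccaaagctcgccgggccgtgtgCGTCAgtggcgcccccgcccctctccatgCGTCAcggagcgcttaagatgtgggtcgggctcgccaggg
Nr4a2: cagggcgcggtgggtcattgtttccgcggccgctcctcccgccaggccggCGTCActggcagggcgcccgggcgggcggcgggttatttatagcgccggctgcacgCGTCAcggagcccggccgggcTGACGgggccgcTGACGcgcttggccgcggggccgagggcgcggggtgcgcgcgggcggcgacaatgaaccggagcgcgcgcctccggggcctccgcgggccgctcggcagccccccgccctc
Btg2: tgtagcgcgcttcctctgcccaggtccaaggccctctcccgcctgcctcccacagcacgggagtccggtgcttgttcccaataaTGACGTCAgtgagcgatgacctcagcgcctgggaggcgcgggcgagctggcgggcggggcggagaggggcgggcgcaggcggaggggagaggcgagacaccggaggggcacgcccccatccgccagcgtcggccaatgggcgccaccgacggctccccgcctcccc

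TGACG, searched on both strands, was present for 16 of the 32 members, in 19 of their 42 windows, against 17.8% of 32851 mouse promoter windows of the same length. Nr4a1 and Nr4a2 each held 4 copies. The full element TGACGTCA, which contains TGACG on each strand, was present in 3 members (Dusp1, Btg2 and Maff) and in 1.55% of all windows. The CArG box, the binding motif of SRF, was found in Egr2, Dusp5 and Zfp36, and in 1.47% of all windows. The AP-1 site TGANTCA, searched on both strands, was in the windows of 0 members and in 6.75% of all windows. The heat shock element, the inverted repeats that HSF1 binds, was searched on both strands in a strict spelling only. That spelling was likewise in 0 members and in 0.466% of all windows. Shorter or imperfect forms of the repeats were not searched, so its absence does not show that a window lacks sites for HSF1. TATAAA, searched on the gene's strand only, was in Fos and Gadd45b and in 7.59% of all windows. These matches describe letters in a window and were not tested for use by any factor.

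Hspa1a and Hspa1b encode the stress-inducible HSP70 and lie next to each other on chromosome 17. Their promoter windows (chr17:34972157-34972406 and chr17:34959239-34959488, both minus strand) are shown because they are nearly a single sequence: 247 of 250 bases were identical, and capitals mark the 3 that differ.
Hspa1a: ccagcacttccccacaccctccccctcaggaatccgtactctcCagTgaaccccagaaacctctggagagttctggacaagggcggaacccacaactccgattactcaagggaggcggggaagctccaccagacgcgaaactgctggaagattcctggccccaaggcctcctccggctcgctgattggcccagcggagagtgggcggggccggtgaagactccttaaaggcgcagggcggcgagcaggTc
Hspa1b: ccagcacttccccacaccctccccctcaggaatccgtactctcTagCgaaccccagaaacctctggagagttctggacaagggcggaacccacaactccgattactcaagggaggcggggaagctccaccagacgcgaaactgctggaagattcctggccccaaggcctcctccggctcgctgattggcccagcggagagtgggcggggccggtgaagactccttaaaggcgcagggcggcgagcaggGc

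The transcripts also share sequence: 58.8% of the 50-base words of Hspa1a and 62.3% of those of Hspa1b occur in the other gene. How reads matching both genes were counted is not stated in the sources, and the split between these 2 genes is uncertain.

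The libraries held 17820969 to 26147475 counts. The members together took 2.79 to 3.69% of the counts in DBL, 3.72 to 4.69% in ColGFP and 1.96 to 2.30% in TDonly, so the 3 ranges did not overlap. Foxf1, listed in the table as Foxf1a, was at 87.3 to 113 CPM (counts scaled to a common library size, with TMM factors that correct for library composition) in DBL, 54.5 to 62.5 in ColGFP and 229 to 279 in TDonly. Col1a1 was at 9539 to 13224 CPM, 4939 to 9593 and 373 to 1566 CPM in the same order. Cell type markers moved with the populations. The summed level of 12 endothelial markers was 881 to 1211 CPM in ColGFP, 4403 to 5605 in DBL and 12504 to 14083 in TDonly. That of 10 fibroblast markers was 21646 to 37034 CPM in ColGFP, 33623 to 43291 in DBL and 1408 to 5450 in TDonly, and no endothelial or fibroblast marker was at 0 in any library. Most of each fibroblast sum was the collagen genes Col1a1, Col1a2 and Col3a1. Between DBL and ColGFP, 1 of the 10 passed as lower in DBL (Npnt, log2 fold change -1.91, SE 0.33) and 0 as higher (edgeR). Tcf21, Pdgfra and Mfap4 were also lower in DBL without overlap, and Dcn was higher without overlap, but these did not pass. Epithelial markers (12 genes) summed to 4055 to 12096 CPM in ColGFP, 7384 to 8136 in DBL and 11500 to 15004 in TDonly, and leukocyte markers (12 genes) to 966 to 2405, 1289 to 1512 and 1986 to 2875. Most of each epithelial sum was Sftpc alone, at 2568 to 7116 CPM in ColGFP, 4590 to 4702 in DBL and 6792 to 8189 in TDonly. Most of each leukocyte sum was Lyz2 alone, at 772 to 2258 CPM in ColGFP, 1253 to 1357 in DBL and 1890 to 2529 in TDonly. Smooth muscle and pericyte markers (9 genes) summed to 1354 to 2521 CPM in ColGFP, 1141 to 1323 in DBL and 266 to 385 in TDonly. All 12 endothelial markers passed as higher and all 10 fibroblast and 9 smooth muscle and pericyte markers as lower in TDonly than in ColGFP (edgeR), and 7 of 12 epithelial markers as higher. The part of these cell type differences in the results below was not tested. In such bulk samples, fewer cells expressing a gene and less RNA of it per cell cannot be told apart.

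All 39 members passed the filter on low counts, and 30 of them passed the test in at least 1 of 4 comparisons, 3 between populations and 1 between series (edgeR quasi-likelihood test over 15550 genes, adjusted p under 0.05). The 9 that passed in none were Fosl1, Jund, Klf4, Dusp2, Socs3, Nfkbia, Rhob, Hspa8 and Hsph1. The 3 population comparisons share their libraries, so their values are given side by side and are not independent. Between TDonly and ColGFP, 23 members were lower in TDonly and 2 were higher, where 24.0% of all genes tested were lower and 21.6% higher. Between DBL and TDonly, 16 members were higher in DBL and 1 was lower, where 17.3% of all genes were higher and 12.6% lower. Between DBL and ColGFP, 5 members were lower in DBL (Maff, Dusp1, Btg2, Gadd45b and Hspb1) and 0 were higher, where 6.47% of all genes were lower and 8.04% higher. At an unadjusted p under 0.05, 15 members were lower and 1 was higher in that comparison, and DESeq2 called 10 lower and 1 higher. The count of 5 lower members was 1 without ColGFP replicate 2 or 3, 3 when DBL replicate 1 or 3 was left out, 9 for TDonly replicate 1 and 10 for ColGFP replicate 1. With the series as a covariate 18 were lower, among them Fos (adjusted p = 0.00304), Egr1 (0.00883), Egr2 (0.0198), Hspa1a (0.0395) and Atf3 (0.0436). The median log2 fold change over the members was -0.72 for TDonly against ColGFP, 0.43 for DBL against TDonly and -0.26 for DBL against ColGFP, beside 0.02, -0.04 and -0.00 over all genes tested. The mean level in DBL lay between those of the other populations for 30 of the 39 members (76.9%), and for 61% of all genes. In DBL against ColGFP, 1 member was higher and 11 were lower without overlap of libraries (16.9% and 16.4% of all genes). In DBL against TDonly these were 17 and 2 (23.8% and 23.2%), and in TDonly against ColGFP 3 and 22 (27.3% and 28.8%).

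**Figure D1:**
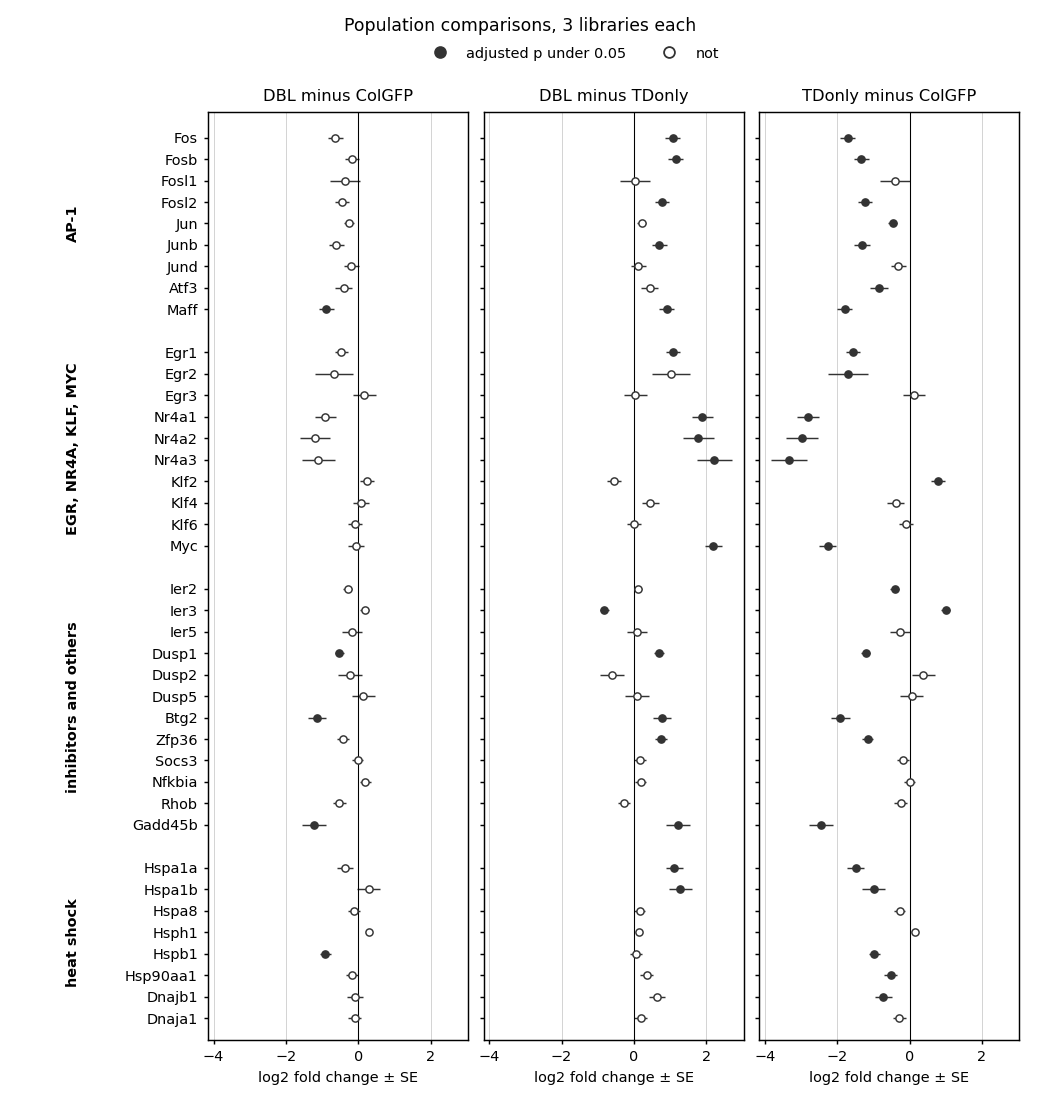
Log2 fold change and its standard error for each of the 39 members (rows, grouped by role) in the 3 comparisons between populations, from 3 libraries each; filled points passed at an adjusted p under 0.05. In the right panel 23 filled points lie left of 0 and 2 lie right of it (Klf2 and Ier3), while the left panel has 5 filled points, all left of 0.

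AP-1 is a dimer of a FOS protein with a JUN protein, and ATF3 and MAFF are basic leucine zipper relatives that can take a partner's place. Of the 9 members of this group, 7 were lower in TDonly than in ColGFP, 5 were higher in DBL than in TDonly and 1 was lower in DBL than in ColGFP. The shares over all genes tested were 24.0%, 17.3% and 6.47% in the same order. Per length, Fos had the highest level of all 39 members in each population, with means of 2016 CPM per kb of exon in DBL, 3135 in ColGFP and 960 in TDonly. Fos was at 3658, 5235 and 5329 CPM in DBL replicates 1, 3 and 4, at 6822, 7397 and 7899 CPM in ColGFP replicates 1 to 3 and at 1755, 2531 and 2488 CPM in TDonly replicates 1 to 3. All ColGFP libraries lay above all DBL libraries and all of these above all TDonly libraries. Fos was 3.27-fold lower in TDonly than in ColGFP (log2 fold change -1.71, SE 0.21, adjusted p = 0.000115) and 2.10-fold higher in DBL than in TDonly (adjusted p = 0.00327). Against ColGFP, the lower level in DBL (log2 fold change -0.64, SE 0.20) did not pass (adjusted p = 0.0672).

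Fosb, which encodes another FOS protein, overlapped between DBL and ColGFP. Its level was 4006, 4207 and 4728 CPM in DBL, 3386, 5590 and 5714 CPM in ColGFP and 1970, 1989 and 1878 CPM in TDonly. DBL lay inside the range of ColGFP only through ColGFP replicate 1, and TDonly lay below both. In the second series alone, Fosb was lower in DBL than in ColGFP without overlap (log2 fold change -0.32, SE 0.06, edgeR adjusted p = 0.000815, 2 libraries each). With all 9 libraries, the log2 fold change was 1.15 (SE 0.20) for DBL against TDonly (adjusted p = 0.0021) and -0.18 (SE 0.20) for DBL against ColGFP (adjusted p = 0.627). Fosl2 and Junb, a FOS-related and a JUN family member, had log2 fold changes of -1.22 and -1.31 for TDonly against ColGFP and of 0.77 (adjusted p = 0.0128) and 0.70 (adjusted p = 0.0329) for DBL against TDonly. The last call, that of Junb, was lost without DBL replicate 3 or 4 or any single TDonly library (highest adjusted p 0.107). Fosl1, the other FOS-related member, was at 0.839 to 2.42 CPM over the 9 libraries, the lowest level per length of the 39.

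Jun encodes the founding partner of FOS proteins. It stood at 2218, 2023 and 2354 CPM in DBL, 2357, 2828 and 2716 CPM in ColGFP and 2102, 1847 and 1751 CPM in TDonly. Only ColGFP lay apart from both other populations, from DBL by a few CPM, and DBL overlapped TDonly. DBL against ColGFP did not pass (log2 fold change -0.26, SE 0.13, adjusted p = 0.253). TDonly was 1.39-fold below ColGFP (log2 fold change -0.47, SE 0.13, adjusted p = 0.0169), a call that was lost without ColGFP replicate 2 or TDonly replicate 2 or 3 (adjusted p from 0.00573 to 0.0703 when each library was left out). Jund, the JUN member with the most even expression in unstimulated cells, was at 397 to 681 CPM and passed in no comparison.

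Atf3, a repressor induced by many stresses, had 611, 934 and 992 CPM in DBL, 762, 1235 and 1361 CPM in ColGFP and 555, 642 and 680 CPM in TDonly. TDonly lay below ColGFP without overlap (log2 fold change -0.84, SE 0.24, adjusted p = 0.0179), and the call was lost without ColGFP replicate 2 or 3 (highest adjusted p 0.0622). Maff, a small MAF protein without an activation domain of its own, had 90.2, 129 and 142 CPM in DBL, 160, 255 and 254 CPM in ColGFP and 64.8, 64.8 and 63.9 CPM in TDonly. The 3 populations did not overlap, and TDonly libraries were nearly level with each other. Maff was 1.85-fold lower in DBL than in ColGFP (log2 fold change -0.89, SE 0.20, adjusted p = 0.0174), 1.87-fold higher in DBL than in TDonly (adjusted p = 0.00855) and 3.46-fold lower in TDonly than in ColGFP (adjusted p = 9.14e-05). The call against ColGFP was lost without ColGFP replicate 2 or 3 (highest adjusted p 0.0674).

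**Figure D2:**
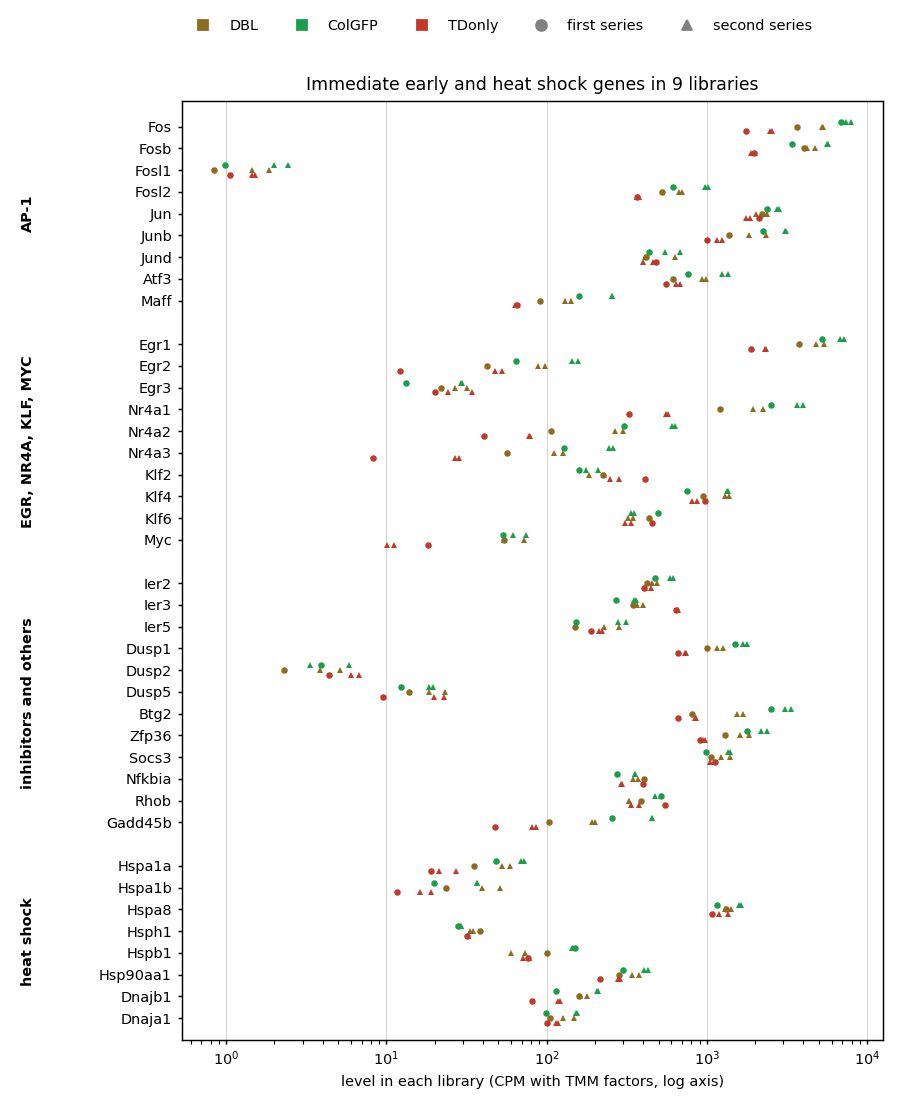
Level of each of the 39 members (rows, grouped by role) in each of the 9 libraries, as CPM on a log axis; colours mark the population, circles the first and triangles the second core number series. For Nr4a1 the ColGFP libraries sit at 2519 to 3955 CPM, the DBL libraries at 1213 to 2223 and the TDonly libraries at 326 to 568, whereas for Ier3 the TDonly libraries sit highest.

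The 3 NR4A genes encode orphan nuclear receptors that need no ligand and are regulated through their amount. They had the 3 largest differences of all 39 members between TDonly and ColGFP. Nr4a1 was at 1213, 1924 and 2223 CPM in DBL, 2519, 3659 and 3955 CPM in ColGFP and 326, 568 and 558 CPM in TDonly. The populations stood apart in every library, TDonly lowest. Nr4a1 was 6.98-fold lower in TDonly than in ColGFP (log2 fold change -2.80, SE 0.31, adjusted p = 5.88e-05) and 3.69-fold higher in DBL than in TDonly (adjusted p = 0.00114). Per length it ranked 5th of the 39 members in ColGFP and 19th in TDonly.

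Nr4a2 was at 107, 265 and 300 CPM in DBL, 303, 607 and 634 CPM in ColGFP and 40.5, 78.9 and 77.1 CPM in TDonly. Nr4a3 was at 56.6, 111 and 127 CPM in DBL, 128, 246 and 261 CPM in ColGFP and 8.30, 28.3 and 26.8 CPM in TDonly. For both, the populations did not overlap, although the lowest ColGFP library was within a few CPM of the highest DBL library. TDonly was 7.86-fold below ColGFP for Nr4a2 (log2 fold change -2.97, SE 0.45, adjusted p = 0.000464). For Nr4a3 the log2 fold change was -3.32 (SE 0.50, adjusted p = 0.000475). Between DBL and ColGFP none of the 3 passed in the fit without the series: the log2 fold changes were -0.92 (SE 0.29, adjusted p = 0.0647) for Nr4a1, -1.20 (SE 0.42, adjusted p = 0.0952) for Nr4a2 and -1.11 (SE 0.46, adjusted p = 0.157) for Nr4a3. With the series as a covariate all 3 passed as lower in DBL, at adjusted p = 0.000169, 4.34e-05 and 0.000506 (edgeR, 9 libraries).

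Myc, a driver of growth and ribosome synthesis, was nearly level in DBL and ColGFP and low in TDonly. Its level was 54.2, 53.8 and 72.0 CPM in DBL, 53.2, 61.6 and 74.6 CPM in ColGFP and 18.1, 10.1 and 11.2 CPM in TDonly. Every TDonly library lay below every other library, and DBL and ColGFP covered the same range. Myc was 4.57-fold higher in DBL than in TDonly (log2 fold change 2.19, SE 0.24, adjusted p = 0.000185), and 4.81-fold lower in TDonly than in ColGFP (adjusted p = 4.49e-05). DBL differed from ColGFP by -0.07 on the log2 scale (SE 0.22, adjusted p = 0.875).

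Egr1, a zinc finger factor induced through SRF, had 3750, 4775 and 5340 CPM in DBL, 5186, 6803 and 7184 CPM in ColGFP and 1873, 2335 and 2312 CPM in TDonly. TDonly lay below both other populations, and DBL overlapped ColGFP through ColGFP replicate 1. Egr1 was 2.94-fold lower in TDonly than in ColGFP (log2 fold change -1.56, SE 0.19, adjusted p = 0.000143) and 2.13-fold higher in DBL than in TDonly (adjusted p = 0.00221). Egr2, its relative, had 42.1, 88.9 and 97.1 CPM in DBL, 64.7, 144 and 156 CPM in ColGFP and 12.2, 47.6 and 52.5 CPM in TDonly. Replicate 1 was the lowest library of each population, and DBL overlapped both others. TDonly was lower than ColGFP (log2 fold change -1.70, SE 0.54, adjusted p = 0.0284), a call lost without ColGFP replicate 2 or 3 (highest adjusted p 0.0844). Egr3, the third EGR member, was at 13.2 to 34.1 CPM and passed in no comparison of populations.

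The 3 KLF members moved otherwise. Klf2, an endothelial factor induced by laminar blood flow, had 226, 185 and 229 CPM in DBL, 159, 210 and 176 CPM in ColGFP and 409, 283 and 249 CPM in TDonly. It was higher in TDonly than in ColGFP (log2 fold change 0.79, SE 0.19, adjusted p = 0.00759), against the direction of the other members of this group that passed. For Klf4 the differences between populations did not pass, with 746 to 1382 CPM over all libraries, and for Klf6, a factor of injury responses, the log2 fold change of DBL against TDonly was 0.01 (SE 0.20).

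Signalling inhibitors limit the same response. Of the 12 members of this group, 5 were lower in TDonly than in ColGFP and 1, Ier3, was higher. The shares over all genes tested were 24.0% lower and 21.6% higher. The median log2 fold change of the 12 was -0.25. Dusp1, a phosphatase that inactivates MAP kinases, stood at 1003, 1158 and 1266 CPM in DBL, 1494, 1772 and 1677 CPM in ColGFP and 661, 736 and 730 CPM in TDonly. The populations did not overlap. Dusp1 was 2.32-fold lower in TDonly than in ColGFP (log2 fold change -1.22, SE 0.13, adjusted p = 4.71e-05), 1.61-fold higher in DBL than in TDonly (adjusted p = 0.00278) and 1.44-fold lower in DBL than in ColGFP (adjusted p = 0.0211). The last call was lost without DBL replicate 1 or 3, and without either of ColGFP replicates 2 and 3 (highest adjusted p 0.0812).

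Btg2, an antiproliferative protein that speeds the decay of messenger RNA, was at 812, 1547 and 1673 CPM in DBL, 2511, 3061 and 3335 CPM in ColGFP and 656, 844 and 854 CPM in TDonly. ColGFP lay apart from both others, and DBL replicate 1 lay within the TDonly range. Btg2 was 2.21-fold lower in DBL than in ColGFP (log2 fold change -1.14, SE 0.26, adjusted p = 0.0159) and 3.78-fold lower in TDonly than in ColGFP (adjusted p = 0.000255). The call against ColGFP was lost for DBL without ColGFP replicate 2 or 3 (highest adjusted p 0.0587). Btg2 also passed between DBL and TDonly (log2 fold change 0.78, SE 0.26, adjusted p = 0.0461), but this was lost without any of 7 libraries (each except DBL replicate 1 and ColGFP replicate 1, highest adjusted p 0.145), and adjusted p was 0.0501 with DESeq2 size factors.

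Gadd45b, a stress sensor that activates p38 and JNK signalling, was at 104, 192 and 201 CPM in DBL, 254, 454 and 456 CPM in ColGFP and 47.5, 81.4 and 85.3 CPM in TDonly. The populations did not overlap, and replicate 1 was the lowest of each. It was 5.44-fold lower in TDonly than in ColGFP (log2 fold change -2.44, SE 0.34, adjusted p = 0.000267), 2.32-fold higher in DBL than in TDonly (adjusted p = 0.0191) and 2.34-fold lower in DBL than in ColGFP (adjusted p = 0.0326). The last call was lost without any single DBL library or ColGFP replicate 2 or 3 (highest adjusted p 0.109), and that against TDonly was lost without DBL replicate 3 or 4 (highest adjusted p 0.0667).

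Ier3, which encodes a regulator of cell survival, had the opposite order. Its level was 344, 367 and 398 CPM in DBL, 269, 348 and 363 CPM in ColGFP and 640, 661 and 650 CPM in TDonly. Every TDonly library lay above every other library. Ier3 was 1.76-fold lower in DBL than in TDonly (log2 fold change -0.81, SE 0.13, adjusted p = 0.00106) and 1.99-fold higher in TDonly than in ColGFP (adjusted p = 0.00016). Zfp36, an RNA-binding protein that destabilises transcripts of inflammatory genes, was 2.24-fold lower in TDonly than in ColGFP and 1.67-fold higher in DBL than in TDonly. Ier2 was 1.33-fold lower in TDonly than in ColGFP (adjusted p = 0.0207), a call lost without ColGFP replicate 2 or 3 or TDonly replicate 3. The other 6 (Ier5, Dusp2, Dusp5, Socs3, Nfkbia and Rhob) passed in no comparison of populations. Among them, Nfkbia, the inhibitor of NF-kappaB, had a mean level of 329 ± 48.0 CPM in ColGFP, close to the 329 ± 59.2 of TDonly, and of 374 ± 28.4 in DBL (SD over 3 libraries each).

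Of the 8 heat shock members, 5 were lower in TDonly than in ColGFP, 2 were higher in DBL than in TDonly and 1 was lower in DBL than in ColGFP. The shares over all genes tested were 24.0%, 17.3% and 6.47% in the same order, and the counts of 2 and 1 lie near them. Per length, the inducible Hspa1a averaged 16.5 CPM per kb in DBL, 21.3 in ColGFP and 7.60 in TDonly, while Hspa8, the HSP70 made constitutively, averaged 312, 339 and 280. Hspa1a was at 35.1, 59.0 and 52.4 CPM in DBL, 48.2, 72.2 and 69.5 CPM in ColGFP and 19.1, 27.2 and 21.3 CPM in TDonly. DBL and ColGFP overlapped, and TDonly lay below both. Hspa1a was 2.81-fold lower in TDonly than in ColGFP (log2 fold change -1.49, SE 0.23, adjusted p = 0.00052) and 2.17-fold higher in DBL than in TDonly (adjusted p = 0.0047).

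Hspa1b was at 23.7, 50.8 and 39.3 CPM in DBL, 19.8, 36.8 and 36.6 CPM in ColGFP and 11.7, 19.0 and 16.2 CPM in TDonly. TDonly was again lowest without overlap, and the DBL mean stood above the ColGFP mean. It was 2.42-fold higher in DBL than in TDonly (adjusted p = 0.0143, lost without DBL replicate 3 at 0.0591) and lower in TDonly than in ColGFP (log2 fold change -0.99, SE 0.32, adjusted p = 0.0306). That last call was lost without ColGFP replicate 2 or 3 or TDonly replicate 1 or 3 (highest adjusted p 0.0938). With the shared sequence of this pair in mind, the difference between Hspa1a and Hspa1b was not tested.

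Hspb1, the small heat shock protein HSP27, which also binds actin filaments, separated ColGFP from both other populations. Its level was 101, 60.2 and 73.5 CPM in DBL, 151, 147 and 143 CPM in ColGFP and 76.7, 70.8 and 77.7 CPM in TDonly. All ColGFP libraries were highest, and DBL spanned the range of TDonly. Hspb1 was 1.88-fold lower in DBL than in ColGFP (log2 fold change -0.91, SE 0.16, adjusted p = 0.00479), the only 1 of the 5 such calls that held when each library in turn was left out (highest adjusted p 0.0339). DBL differed from TDonly by 0.06 on the log2 scale (SE 0.16, adjusted p = 0.813).

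Hsp90aa1, the stress-inducible HSP90, was at 283, 377 and 339 CPM in DBL, 298, 426 and 403 CPM in ColGFP and 215, 281 and 288 CPM in TDonly. DBL overlapped both other populations. TDonly was 1.44-fold below ColGFP (log2 fold change -0.53, SE 0.17, adjusted p = 0.0329), lost without ColGFP replicate 2 or 3 or TDonly replicate 1 or 2 (highest adjusted p 0.105). Dnajb1, the HSP40 that hands substrates to HSP70, overlapped between TDonly and ColGFP and was 1.65-fold lower in TDonly than in ColGFP (adjusted p = 0.028, lost without ColGFP replicate 2 or 3 or TDonly replicate 1, at 0.0946 at most). Hsph1, an HSP110 that exchanges nucleotide on HSP70, stood at 27.9 to 38.3 CPM, and its higher level in DBL than in ColGFP (log2 fold change 0.30, SE 0.09) had an adjusted p of 0.0506. Dnaja1, another HSP40, passed in no comparison of populations.

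The libraries of the second series lay above those of the first for most members. For 23 of the 39 members (59.0%) each second-series library stood above the first-series library of its population in all 3 populations, against 11.4% of all genes tested. The opposite order held for 1 member, Klf6, and for 11.0% of all genes. Around its population's mean log2 level, 7 members were higher in DBL replicate 1, 3 in ColGFP replicate 1 and 12 in TDonly replicate 1, whereas 23 to 35 of the 39 were higher in each second-series library. The median deviation over the members was -0.27 in DBL replicate 1, -0.33 in ColGFP replicate 1 and -0.14 in TDonly replicate 1 on the log2 scale. Over all genes, 49.2 to 51.8% lay above their population mean in each library.

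**Figure D3:**
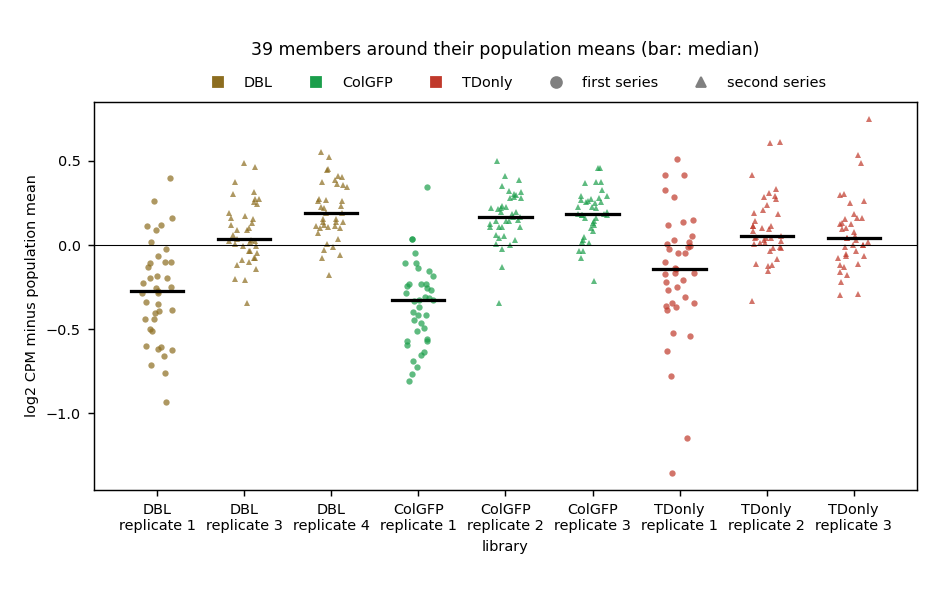
Log2 CPM of each of the 39 members minus its mean in the population (points) in each of the 9 libraries, with the median over members as a bar; circles mark the first and triangles the second core number series. The medians of the 3 first-series libraries lie at -0.27, -0.33 and -0.14 and those of the 6 second-series libraries between 0.04 and 0.19.

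With population as a term in the fit, 18 members were higher in the second series and 1, Klf6, was lower, where 4.13% of all genes tested were higher and 3.52% lower. The median log2 difference was 0.40 over the members and -0.01 over all genes. The largest was that of Egr2, which was 2.70-fold higher in the second series (log2 fold change 1.43, SE 0.16, adjusted p = 0.00219), followed by Nr4a3 (1.22, SE 0.13) and Nr4a2 (1.12, SE 0.10). Gadd45b was 1.81-fold higher (log2 fold change 0.86, SE 0.06, adjusted p = 0.000286), with differences of 0.93, 0.84 and 0.81 in DBL, ColGFP and TDonly. By role, 3 of 9 AP-1 members, 6 of 10 of the EGR, NR4A, KLF and MYC group, 4 of 12 inhibitors and others and 5 of 8 heat shock members were higher. The heat shock members were Hspa1a (log2 fold change 0.52, SE 0.10), Hspa1b (0.81, SE 0.12), Hsp90aa1 (0.41, SE 0.07), Dnajb1 (0.49, SE 0.12) and Dnaja1 (0.40, SE 0.09).

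Some members did not share this difference. Jun had a log2 difference of -0.01 (SE 0.10) and Myc of -0.06 (SE 0.20). Klf6 was 1.38-fold lower in the second series (log2 fold change -0.47, SE 0.07, adjusted p = 0.00621), with 435, 492 and 453 CPM in the first-series libraries of DBL, ColGFP and TDonly and 309 to 353 CPM in the 6 of the second. Each second-series library was below each of the first. The count of 18 depended on single libraries: it was 9 when DBL replicate 4 was left out, 10 for DBL replicate 1, ColGFP replicate 3 or TDonly replicate 2, 11 for ColGFP replicate 2 or TDonly replicate 3, and 12 for DBL replicate 3. It was 17 without ColGFP replicate 1 and 20 without TDonly replicate 1. Fos was among the calls that depended on them (adjusted p = 0.0442, from 0.00223 to 0.16 when each library was left out), and so were Junb, Egr1, Dnajb1 and Dnaja1, each lost without 7 of the 9 libraries. Hspa1a was lost without DBL replicate 1 or TDonly replicate 2 (0.0794 at most). Egr2, Nr4a1, Nr4a2, Nr4a3, Dusp5, Gadd45b, Hspa1b, Hsp90aa1 and Klf6 passed in each.

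Cell type markers also differed between series. Fibroblast markers passed as higher in the second series for 5 of 10 genes and leukocyte markers for 4 of 12, and endothelial markers as lower for 6 of 12. The shares over all genes tested were 4.13% higher and 3.52% lower. Of 3 erythroid genes tested, 2 were higher in the second series, Alas2 (log2 fold change 2.09, SE 0.12) and Beta-s (2.03, SE 0.15). ColGFP replicate 1 summed to 12096 CPM of epithelial, 2521 of smooth muscle and pericyte and 2405 of leukocyte markers, where the other ColGFP libraries had at most 6005, 1473 and 1248. The leukocyte sum there follows 1 gene, Lyz2, which was at 2258, 1075 and 772 CPM in ColGFP replicates 1 to 3. Sftpc, most of the epithelial sum, was at 7116, 3806 and 2568 CPM in the same libraries. In TDonly replicate 1 the fibroblast sum was 1408 CPM, against 5186 and 5450 in replicates 2 and 3. The part of these in the members' differences was not tested.

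A test of whether the second-series libraries differed from the first-series library to an unequal degree among populations (interaction) passed for 20 of the 39 members, where 18.0% of all genes passed. Each population has 1 first-series library, so the spread in this test comes only from the pairs of second-series libraries. A difference between series that varies by population and a single first-series library that stands apart cannot be told apart. Fosb had a log2 difference (second minus first) of 0.74 in ColGFP (SE 0.09), 0.16 in DBL (SE 0.08) and -0.03 in TDonly (SE 0.08; interaction adjusted p = 0.000338). Klf4 had 0.85 in ColGFP, 0.51 in DBL and -0.20 in TDonly (adjusted p = 1.01e-05). Egr2 had its larger value in TDonly, with 2.04 (SE 0.13) and 1.14 and 1.22 in DBL and ColGFP (adjusted p = 0.00138). Btg2 had 0.99 in DBL and 0.35 and 0.37 in ColGFP and TDonly (adjusted p = 0.000833). Myc had -0.77 in TDonly (SE 0.18) and 0.22 and 0.36 in DBL and ColGFP (adjusted p = 0.00411).

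**Figure D4:**
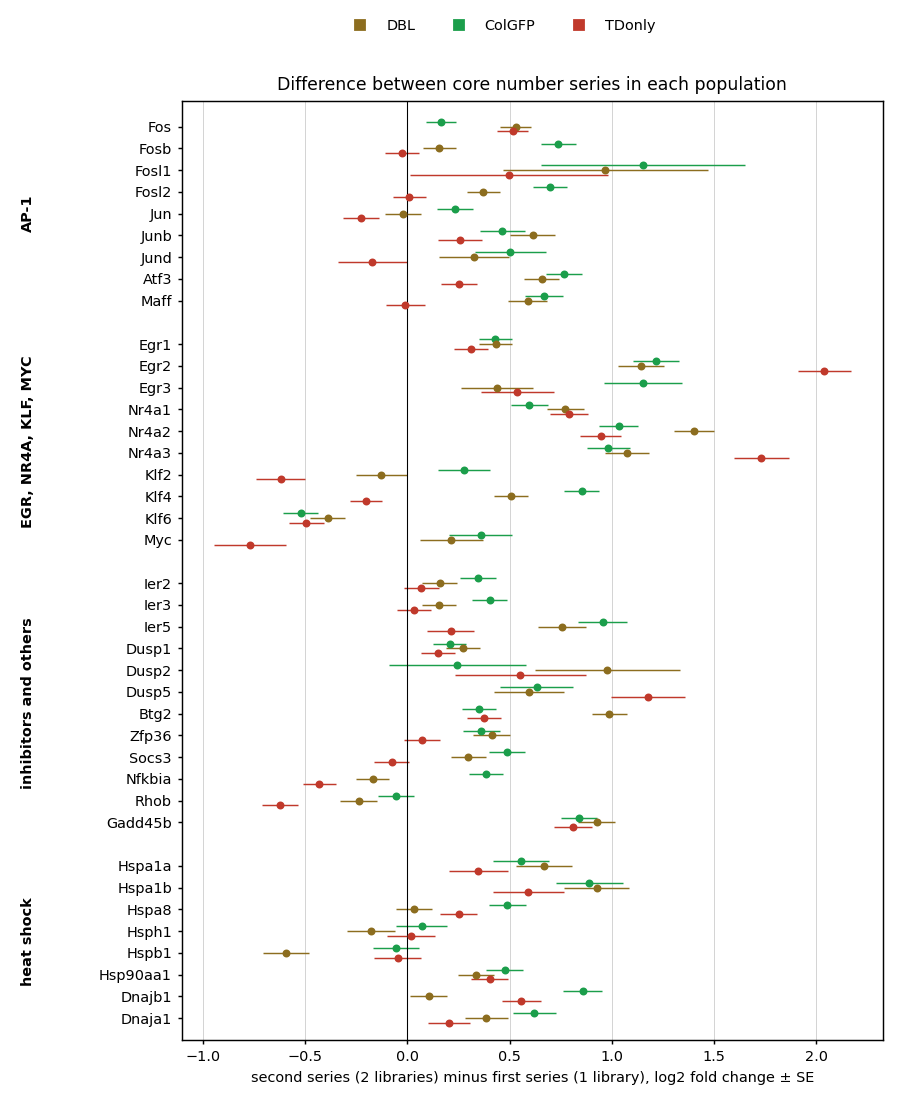
Log2 fold change, with its standard error, of the second against the first core number series for each of the 39 members (rows, grouped by role) in each population (colours), from 2 libraries against 1. Gadd45b lies at 0.81 to 0.93 in all 3 populations, while Klf4 lies at 0.85 in ColGFP and -0.20 in TDonly, and Klf6 lies left of 0 in all 3.

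Within the second series alone, with 2 libraries per population and 15616 genes tested, the order of populations was the same and more members passed. The p-values here rest on the spread within these pairs, which was small. Over gene counts, the 2 libraries of a pair had a chi-square per degree of freedom of 4.9 to 13.1. Against the first-series library of their population it was 47.5 to 87.5. Whether the libraries of a pair are separate animals is not given. Against ColGFP, 22 members were lower in DBL and 0 were higher (12.6% and 16.3% of all genes; 24 and 2 members at an unadjusted p under 0.05, a count not repeated with DESeq2 here). Those lower included Fos (log2 fold change -0.52, SE 0.06, adjusted p = 2.15e-06), Nr4a1 (-0.86, SE 0.07), Nr4a2 (-1.12, SE 0.07), Nr4a3 (-1.07, SE 0.08) and Hspa1a (-0.33, SE 0.11, adjusted p = 0.0249). Against TDonly, 27 members were higher in DBL and 2 were lower (23.6% and 19.4% of all genes), and between TDonly and ColGFP 31 members were lower in TDonly and 2 higher (29.8% and 26.8%). Klf4, which passed in no comparison of populations with 9 libraries, was 1.64-fold higher in DBL than in TDonly here (adjusted p = 5.73e-08). The first-series libraries did not show this, with 940 CPM of Klf4 in DBL and 965 CPM in TDonly. The 3 first-series libraries, 1 per population, gave a median log2 difference over the members of -0.17 for DBL against ColGFP, 0.39 for DBL against TDonly and -0.47 for TDonly against ColGFP, without a test. In these, 25, 10 and 26 of the 39 members had a negative difference, in the same order.

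Lists of further genes of the same pathways, none of them members, were fitted in the same way. They were chosen with earlier results of these data known and are no independent check. Of 48 other immediate early genes, 28 were lower and 9 higher in TDonly than in ColGFP, 20 were higher and 8 lower in DBL than in TDonly, and 11 were lower and 4 higher in DBL than in ColGFP. Of all genes tested, 24.0% were lower and 21.6% higher in TDonly than in ColGFP. In DBL, 17.3% were higher and 12.6% lower than in TDonly, and 6.47% were lower and 8.04% higher than in ColGFP. Cyr61, a secreted matricellular protein and YAP target, was lower in TDonly than in ColGFP (log2 fold change -3.11, SE 0.15) and lower in DBL than in ColGFP (-1.42, SE 0.14). Elk3, an SRF partner prominent in endothelium, was higher in TDonly than in ColGFP (log2 fold change 2.69, SE 0.13). Of 33 other heat shock and chaperone genes, 12 were lower and 2 higher in TDonly than in ColGFP. Among the 12, Dnajb4, an HSP40, had a log2 fold change of -2.22 (SE 0.13), and Serpinh1, the collagen chaperone HSP47, had -1.43 (SE 0.16). Of 12 genes of endoplasmic reticulum stress, 6 were lower in TDonly than in ColGFP and 1 was higher; Hspa5, the chaperone BiP, had -1.01 (SE 0.21) and Chac1, which degrades glutathione, had 1.91 (SE 0.32). In the second series against the first, 14 of the 48, 3 of the 33 and 3 of the 12 were higher, and 3 of the 48 were lower. Of all genes tested, 4.13% were higher and 3.52% lower. Per1, a clock gene that is also immediate early, was lower (log2 fold change -0.92, SE 0.09). Of 10 housekeeping genes tested, 3 were higher in TDonly than in ColGFP, and 1 was higher and 2 were lower in the second series.

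Among the 32 members with a promoter window, 13 of the 16 with TGACG and 6 of the 16 without it were lower in TDonly than in ColGFP. Of all genes tested, 24.0% were lower. The shares among all genes with and without TGACG were not counted, so these counts do not link the motif to the difference. This split was chosen after the values were seen and was not tested, and the windows cover only part of each gene's regulatory sequence.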

How the data were processed

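RNA-seq was measured in 9 libraries, 3 per sorted population. The submitters' processing notes name cutadapt, TopHat, HTSeq and the build mm10; the sources give no version, strand setting or annotation. Ribosomal RNA was depleted with ribogone, per the design text. The labels' protocol describes RNA from flash-frozen lung, and how it applies to sorted cells is not stated. The authors deposited raw read counts per gene symbol, not normalised; 3 other columns could be tied to no sample and are left out. Rn45s, a ribosomal RNA precursor, took 2.77 to 7.90% of the counts. The files do not state gene lengths, so levels per kb use exon bases of GENCODE M21.

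Populations and replicate numbers were taken from the titles. Genes were kept by filterByExpr (minimum count of 10; 15550 of 19348). Tests were two-sided edgeR quasi-likelihood tests (R 4.3.3 with edgeR 4.0.16 and limma 3.58.1), TMM scaling and Benjamini-Hochberg adjustment over all genes tested, at 0.05. All 9 libraries shared a fit with a mean per population (6 residual degrees of freedom); the series fit had 5, the interaction and second-series fits 3 each. Standard errors were taken as the absolute log2 fold change over the root of the F statistic. The scripts were tested on simulated data. Alternatives were DESeq2 1.42.0, its size factors, limma-voom, no filter, a replicate block, the series as covariate, the second series only and leaving out each library. Leaving out libraries, other scaling and no filter were added for the interaction after seeing the data.

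Members in full detail are those with the 4 smallest adjusted p in each comparison, those with the largest fold change of a role, and Fos, Jun, Egr1, Hspa1a, Hspa1b and Hsp90aa1; others named with values were chosen after these were seen. From the other lists, up to 4 genes per comparison with the smallest adjusted p could be named. The members and lists were chosen with earlier results of these data known. Besides lists given with the results, mesothelial markers were higher in DBL than in ColGFP for 5 of 7 genes and than in TDonly for 7.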

Additional observations from a re-analysis of the deposited data

Results flagged for a closer look

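A test of whether the second and the first core number series differed to an unequal degree among the 3 populations passed for 20 of the 39 members and for 18.0% of all genes (edgeR interaction test). Each population has 1 first-series library and the spread comes only from the pairs of second-series libraries, so a single first-series library that stands apart and a difference particular to a population cannot be told apart. Of the members described in full, Fosb (adjusted p = 0.000338), Btg2 (adjusted p = 0.000833), Egr2 (adjusted p = 0.00138), Maff (adjusted p = 0.00218), Myc (adjusted p = 0.00411) and Nr4a3 (adjusted p = 0.00919) had the smallest values. Atf3 (adjusted p = 0.0113), Fos (adjusted p = 0.0284), Hspb1 (adjusted p = 0.0304), Jun (adjusted p = 0.0428) and Nr4a2 (adjusted p = 0.044) also passed. Maff had a log2 difference (second minus first series) of 0.59 in DBL and 0.67 in ColGFP, and of -0.01 in TDonly. Hspb1 had -0.59 in DBL and -0.06 and -0.05 in ColGFP and TDonly. Groups of 3 libraries were not tested for single libraries that stand apart.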

How the results depend on the processing

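For TDonly against ColGFP, 16 to 31 members were lower (23 in the main analysis) and 2 were higher under every alternative run. For DBL against ColGFP the count of lower members, 5 in the main analysis, was 10 with DESeq2, 9 with the replicate block, 18 with the series as covariate and 22 in the second series only, and 1 to 10 when each library was left out: 1 for ColGFP replicate 2 or 3, 3 for DBL replicate 1 or 3, 9 for TDonly replicate 1 and 10 for ColGFP replicate 1. The count of higher members was 1 with DESeq2, DESeq2 size factors and the series as covariate, against 0. For DBL against TDonly, 27 members were higher in the second series only, and 2 were lower with DESeq2, DESeq2 size factors, the replicate block, the series as covariate and the second series only, and 1 to 2 when each library was left out (2 without TDonly replicate 3). Between series, the count of higher members ranged from 9 to 20 and that of lower members from 1 to 3 when each library was left out (3 without ColGFP replicate 1). The interaction count ranged from 14 to 24 over its alternatives; first-series libraries could not be left out of that test.

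Values that changed sign were all small: Hspb1 in DBL against TDonly was -0.11 in the second series only and ranged from -0.17 (without DBL replicate 1) to 0.22 when each library was left out; Myc in DBL against ColGFP ranged from -0.19 to 0.06 (without ColGFP replicate 3); between series, Jun was 0.01 with DESeq2 and with its size factors and ranged from -0.13 to 0.10 when each library was left out, and Myc was 0.08 with limma-voom and ranged from -0.26 to 0.28. The cause was not tested.

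Over all genes, the second series only gave 2543 higher and 1969 lower genes for DBL against ColGFP (1250 and 1006 with 9 libraries) and 3031 lower for DBL against TDonly (1965), DESeq2 gave 1201 higher between series (642), and the replicate block gave 626 lower for DBL against ColGFP. Leaving out single libraries brought the lower genes to between 581 and 669 (each DBL library, ColGFP replicates 2 and 3) for DBL against ColGFP and to 1155 (DBL replicate 4) for DBL against TDonly, and the genes higher between series to 244 (without DBL replicate 4) or 1304 (without ColGFP replicate 1) and those lower from 548 to 203 or 1259 in the same order. Replicate numbers shared across populations were not shown to pair the libraries: deviations of same-numbered libraries correlated at 0.0156 to 0.527. Titles number the replicates 1, 3 and 4 in DBL and 1 to 3 in the others, so DBL replicate 4 has no partner in its block. By consecutive core numbers, DBL replicate 3 stands next to replicate 2 of ColGFP and TDonly, an order that the block does not use. With the replicate block, Btg2 between DBL and TDonly no longer passed (adjusted p = 0.0576), while 5 values of described members newly passed: Nr4a1 (0.00726), Nr4a2 (0.00142) and Nr4a3 (0.0169) between DBL and ColGFP, and Egr2 (0.0128) and Hsp90aa1 (0.0359) between DBL and TDonly. With the series as covariate 11 such values newly passed; beside those in the report, they were Atf3 (0.0262), Egr2 (0.000581) and Hsp90aa1 (0.0068) between DBL and TDonly. Fosl1, at 22 to 43 counts per library, is limited by depth.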
